A study of Homo sapiens with 8 samples.

Results

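*BMF* and 9 further genes of the BCL2 family, *BCL2*, *BCL2L1*, *BCL2L2*, *BCL2L11*, *MCL1*, *BID*, *BIK*, *BAD* and *BAK1*, were followed over 8 RNA-seq libraries of breast epithelial cells. They are 10 of the 13842 genes in the deposited table, found by their symbols, and all 10 are in it. The members were chosen with earlier results of these 8 libraries known. *BMF* was taken here as chosen by its lower level in MCF10A cells with pLOC-*MALINC1* than in MCF10A cells with pLOC-empty, and the other members as genes of the same family. The MCF10A comparison is therefore given below as a description, with no p-value for any member. The comparison within DCIS.COM cells, whose libraries are not in that contrast, was tested, with the spread estimated over all 8 libraries. Its p-values hold only as far as the DCIS.COM values had no part in the choice, which is not recorded. Between the lines the MCF10A libraries enter again, so *BMF* has no p-value there. The p-values of the other 9 members there hold only as far as their own values had no part in the choice.

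MCF10A is a normal breast epithelial cell line, and DCIS.COM, of the MCF10 lineage, models ductal carcinoma in situ. All cells in the study carried a pLOC lentiviral vector and had been selected with blasticidin, the controls included. The 4 groups were MCF10A pLOC-empty, MCF10A pLOC-*MALINC1*, DCIS.COM pLOC-empty and DCIS.COM pLOC-*MALINC1*, with 2 libraries each, and the *MALINC1* vector expresses a long non-coding RNA. The comparison of vectors within a line asks what *MALINC1* overexpression changes in normal and in pre-invasive cells. The medium of MCF10A held horse serum, epidermal growth factor, hydrocortisone, insulin and cholera toxin and that of DCIS.COM horse serum without these additions, so medium and line cannot be told apart. Whether a transduced line was a pool or a clone, and whether the 2 libraries of a group came from separate cultures, is not given in the sources used here. The p-values thus measure the spread between these libraries, which may be technical.

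The BCL2 family governs the permeability of the outer mitochondrial membrane and with it the intrinsic pathway of apoptosis. Its anti-apoptotic proteins (BCL2, BCL-XL from *BCL2L1*, BCL-W from *BCL2L2* and MCL1) bind and restrain the effectors BAX and BAK, whereas the BH3-only proteins (BMF, BIM from *BCL2L11*, BID, BIK and BAD) occupy the groove of the anti-apoptotic proteins or engage the effectors directly. In breast epithelium, BMF and BIM are known for their part in anoikis, the death of cells that lose contact with the matrix, and in the clearing of the lumen of mammary acini.

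The promoter sequences of *BMF* and *BCL2L11* are shown because these are the members with the most similar profile over the libraries. They are RefSeq windows of the 250 bases before an annotated start, placed on GRCh37 (hg19) and written 5′ to 3′ on the strand of the gene, and 13 bases that lie in an exon of the gene were left out of the first *BMF* window. Capitals mark a match to the forkhead (FOXO) motif.
*BMF*, chr15:40401094-40401330 (minus strand): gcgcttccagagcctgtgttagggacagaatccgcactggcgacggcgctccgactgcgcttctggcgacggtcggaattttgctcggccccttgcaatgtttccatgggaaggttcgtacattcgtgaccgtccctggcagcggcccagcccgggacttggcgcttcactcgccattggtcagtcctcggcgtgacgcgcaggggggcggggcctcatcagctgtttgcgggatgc
*BMF*, chr15:40399168-40399417 (minus strand): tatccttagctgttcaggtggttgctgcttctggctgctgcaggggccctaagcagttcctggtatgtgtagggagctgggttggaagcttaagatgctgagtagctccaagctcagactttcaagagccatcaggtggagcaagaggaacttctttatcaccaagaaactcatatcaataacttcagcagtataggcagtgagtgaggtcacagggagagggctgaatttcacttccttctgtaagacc
*BCL2L11*, chr2:111878241-111878490 (plus strand): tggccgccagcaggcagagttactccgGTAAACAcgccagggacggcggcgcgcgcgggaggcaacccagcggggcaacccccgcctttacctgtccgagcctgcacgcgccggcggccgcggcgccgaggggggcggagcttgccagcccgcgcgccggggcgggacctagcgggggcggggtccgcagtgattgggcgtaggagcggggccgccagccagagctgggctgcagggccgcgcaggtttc

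Motifs were searched on both strands in the 14 windows of the 7 members that the promoter table holds. The letters were GTAAACA for FOXO, TGACTCA for AP-1 and CACGTG for the E-box, and none of the matches overlapped a match to another motif. Of all 34788 windows of that length, 2.98% hold the FOXO letters, 4.21% the AP-1 letters and 6.31% the E-box letters. Among the members, *BCL2L11* holds the FOXO letters 223 bases before its start, and *BID* holds an E-box site that lies 106 bases before one annotated start and 47 bases before another. The *BMF* windows hold none of these letters. A match is a description of the sequence, and no factor was measured at these sites.

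The libraries held 20604377 to 37550457 reads on genes, with 8.22 to 15.7% of them on the abundant RNAs *RN7SL1* and *RN7SL2*. Levels are given as CPM, the reads of a gene scaled to library size, taken from the deposited log2 CPM. They include a prior of about 2 reads, so a gene without any read stands at 0.0713 CPM. *MALINC1* itself read 1.07 and 1.58 CPM in MCF10A pLOC-empty, 13.3 and 11.8 CPM in MCF10A pLOC-*MALINC1*, 1.42 and 1.22 CPM in DCIS.COM pLOC-empty and 24.5 and 19.2 CPM in DCIS.COM pLOC-*MALINC1*, higher in each library labelled for it than in its control. All 10 breast epithelial markers were in the table, and their summed level was 28960 to 29010 CPM in MCF10A pLOC-empty, 37570 to 38850 CPM in MCF10A pLOC-*MALINC1*, 7734 to 7833 CPM in DCIS.COM pLOC-empty and 8132 to 8236 CPM in DCIS.COM pLOC-*MALINC1*. In MCF10A these sums were carried by the keratins of basal cells, whereas in DCIS.COM *KRT8*, *KRT18* and *ITGB4* were the highest markers with either vector. The markers differed in direction between the lines. With pLOC-empty, the mean of *KRT17* was 9985 CPM in MCF10A and 970.4 CPM in DCIS.COM, while *KRT8* read 812.8 and 1852 CPM, *KRT18* 504.6 and 1587 CPM, *ITGB4* 516.9 and 1629 CPM, *EPCAM* 62.3 and 280.2 CPM and *TP63* 4.99 and 56.7 CPM. Of 8 markers of leukocytes, endothelium and fibroblasts 3 were in the table, with a summed level of 27.8 to 28.3, 17.0 to 17.3, 11.9 to 12.9 and 8.85 to 8.95 CPM in the same order of groups. In DCIS.COM these 3 moved apart between pLOC-empty and pLOC-*MALINC1*. There the means of *PECAM1* were 6.71 and 0.204 CPM, those of *CD68* 3.63 and 7.07 CPM and those of *COL1A1* 2.03 and 1.63 CPM. In MCF10A the mean of each epithelial marker was higher with pLOC-*MALINC1* than with pLOC-empty. The differences ran from *KRT8* (815.8 against 812.8 CPM) to *TP63* (41.0 against 4.99 CPM), and *KRT14* read 2922 against 1452 CPM. The part of these differences in the results below was not tested. In bulk RNA, fewer cells that express a gene and less RNA per cell cannot be told apart.

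In MCF10A, *BMF* stood apart from every other member in the size of its difference. Its level was 23.9 and 25.9 CPM with pLOC-empty, from 692 and 584 reads, and 2.08 and 1.66 CPM with pLOC-*MALINC1*, from 72 and 42 reads. The log2 fold change was -3.75 (standard error 0.18), a level 13.4-fold lower with *MALINC1*, and it ranged from -3.91 to -3.21 over the alternative settings. By reads alone the ratio of the *MALINC1* to the empty libraries was 0.0739, with an exact 95% interval of 0.0605 to 0.0896 that covers counting error only. The log2 fold change of the other 9 members stayed within 2-fold. In this comparison 5.5% of all genes were differentially expressed (DEGs, adjusted p below 0.01 and over 2-fold), and nothing is read from that share for the members.

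*BCL2L11*, which encodes the BH3-only protein BIM, had the next largest difference in MCF10A. It read 16.1 and 18.3 CPM with pLOC-empty and 9.49 and 10.2 CPM with pLOC-*MALINC1*, so the groups did not overlap. The log2 fold change was -0.80 (standard error 0.10). *BAD*, a BH3-only protein that growth factor signalling keeps phosphorylated, read 38.6 and 40.6 CPM against 34.0 and 35.3 CPM (log2 fold change -0.19, standard error 0.056).

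The other BH3-only genes were higher in the MCF10A libraries with *MALINC1*. *BID*, whose product links death receptors to mitochondria, read 38.1 and 37.5 CPM with pLOC-empty and 52.4 and 50.8 CPM with pLOC-*MALINC1* (log2 fold change 0.45, standard error 0.043). *BIK* read 8.86 and 7.73 CPM against 10.1 and 10.5 CPM (0.31, standard error 0.11). The BH3-only genes thus lay on both sides of 0, with *BMF*, *BCL2L11* and *BAD* lower and *BID* and *BIK* higher.

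*BAK1*, the gene of the pore-forming effector BAK, had the largest positive difference among the members in MCF10A. It read 28.1 and 28.8 CPM with pLOC-empty and 44.9 and 49.4 CPM with pLOC-*MALINC1* (log2 fold change 0.73, standard error 0.066). It did not reach 2-fold.

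Among the anti-apoptotic genes, those of BCL-XL and MCL1 were higher with *MALINC1* in MCF10A. *BCL2L1* read 85.2 and 85.4 CPM against 112.7 and 111.1 CPM (log2 fold change 0.39, standard error 0.040), and *MCL1* read 284.2 and 284.7 CPM against 353.1 and 342.8 CPM (0.29, standard error 0.031). *BCL2* and *BCL2L2* overlapped between the vectors. *BCL2* rested on few reads, with 1.04 and 0.735 CPM against 0.879 and 0.902 CPM from 15 to 29 reads per library (0.03, standard error 0.20). *BCL2L2* read 32.4 and 33.2 CPM against 32.9 and 35.1 CPM (0.05, standard error 0.065). The libraries of the vectors did not overlap for 8 of the 10 members, and for 76.5% of all genes.

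**Figure D1:**
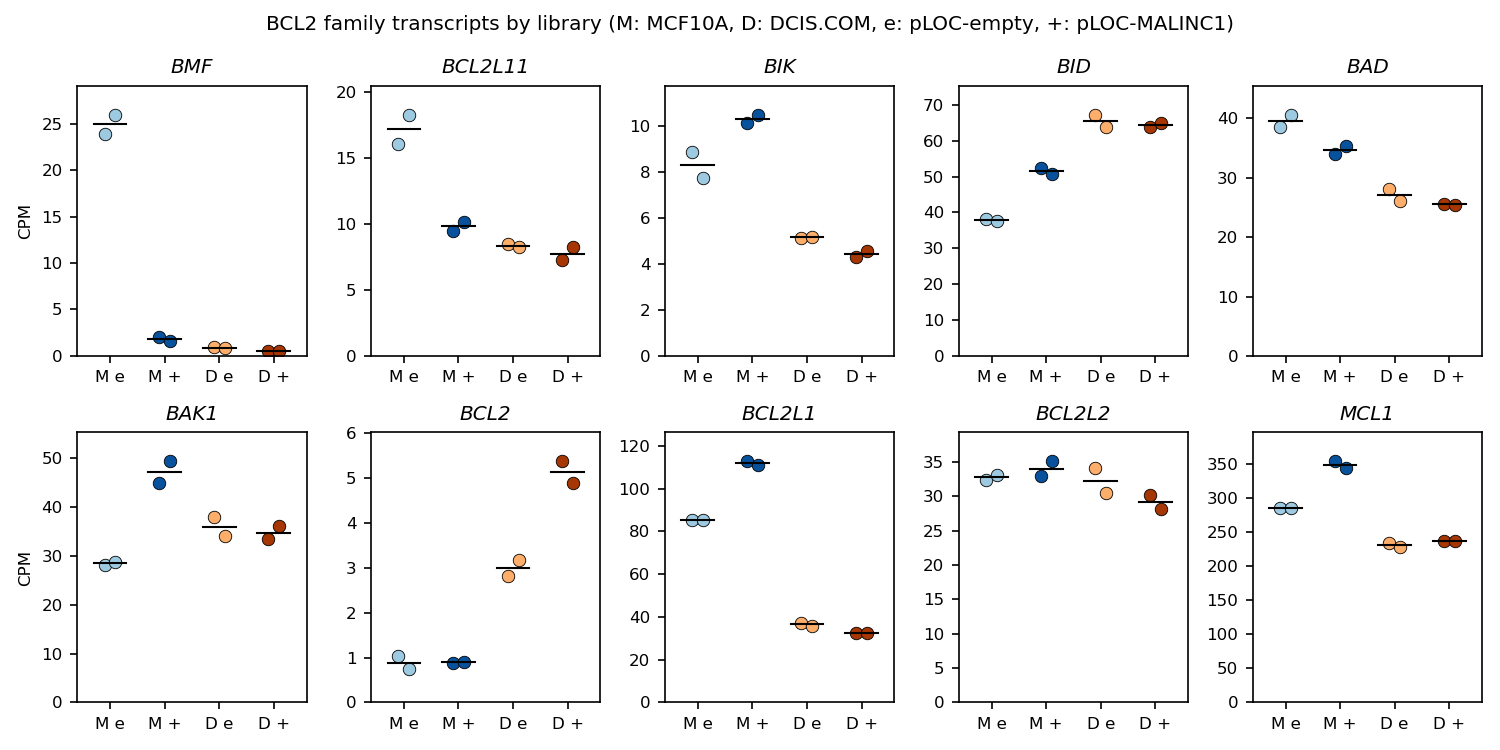
Level of each of the 10 genes in CPM (vertical axes, each from 0) in the 8 libraries. Points are libraries and black lines the mean of the 2 libraries of a group. *BMF* is at 23.9 and 25.9 CPM in MCF10A pLOC-empty and at 2.08 CPM or less in the other 6 libraries, and *BCL2* is highest in DCIS.COM pLOC-*MALINC1*.

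In DCIS.COM the differences between the vectors were small, and none of the 10 members passed both thresholds, against 4.53% of all genes. At an adjusted p below 0.01 with any fold, *BCL2* was higher with *MALINC1* and *BMF* and *BCL2L1* were lower, that is 1 of 10 members higher (16.4% of all genes) and 2 of 10 lower (16.7% of all genes). These shares are near those of all genes. With DCIS.COM fitted alone, so that no MCF10A library entered the estimate of the spread, 0 of the 10 members had an adjusted p below 0.01. The median log2 fold change was -0.10 over the members and 0.01 over all genes.

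*BMF* rested on few reads in DCIS.COM with either vector. It read 0.911 and 0.835 CPM with pLOC-empty, from 18 and 16 reads, and 0.537 and 0.544 CPM with pLOC-*MALINC1*, from 16 and 16 reads. The log2 fold change was -0.69 (standard error 0.18, 95% interval -1.07 to -0.31, adjusted p = 0.00656 by limma), and it was lower in 2 of 2 libraries. By reads alone the ratio was 0.585 with an exact 95% interval of 0.350 to 0.978. This interval is wider than that of limma, whose standard error and p-value thus understate the counting error of so few reads. The adjusted p stayed below 0.01 in 6 of 17 alternatives and reached 0.0873 with limma's voom on the recovered reads, so the call depends on the settings.

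*BCL2*, the founding anti-apoptotic gene, read 2.82 and 3.17 CPM with pLOC-empty, from 59 and 65 reads, and 5.37 and 4.89 CPM with pLOC-*MALINC1*, from 182 and 163 reads. The log2 fold change was 0.78 (standard error 0.20, adjusted p = 0.00718 by limma), and the adjusted p stayed below 0.01 in 9 of 16 alternatives, voom among them (adjusted p = 0.000712). The ratio of reads was 1.73, with an exact 95% interval of 1.41 to 2.14. Both DCIS.COM libraries with *MALINC1* were above both with pLOC-empty.

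*BCL2L1* read 37.3 and 35.6 CPM with pLOC-empty and 32.5 and 32.3 CPM with pLOC-*MALINC1* in DCIS.COM. The difference (log2 fold change -0.17, standard error 0.040, adjusted p = 0.00448 by limma) was small but larger than the spread between libraries, and the adjusted p stayed below 0.01 in 11 of 17 alternatives. Leaving out any of the 4 DCIS.COM libraries left 0 or 1 of the 3 calls, and that 1 was *BCL2L1* without replicate 2 of pLOC-empty.

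The other 7 members did not pass the threshold in DCIS.COM. *BCL2L2* read 34.2 and 30.4 CPM against 30.2 and 28.2 CPM, with a log2 fold change of -0.14 and a 95% interval of -0.29 to -0.002. *BIK* read 5.11 and 5.18 CPM against 4.30 and 4.54 CPM (-0.22, 95% interval -0.46 to 0.02), and *BCL2L11* read 8.47 and 8.23 CPM against 7.24 and 8.23 CPM (-0.11, 95% interval -0.33 to 0.11).

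The remaining levels were close between the vectors in DCIS.COM. *MCL1* read 234.2 and 227.3 CPM against 235.8 and 236.5 CPM (log2 fold change 0.03, 95% interval -0.04 to 0.10). *BID* read 67.2 and 63.8 CPM against 64.0 and 64.9 CPM (-0.02, 95% interval -0.12 to 0.07). *BAD* read 28.1 and 26.0 CPM against 25.7 and 25.4 CPM (-0.08, 95% interval -0.21 to 0.04), and *BAK1* read 37.9 and 34.1 CPM against 33.4 and 36.2 CPM (-0.05, 95% interval -0.19 to 0.10). The libraries of the vectors did not overlap for 8 of the 10 members in DCIS.COM, against 73.0% of all genes.

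**Figure D2:**
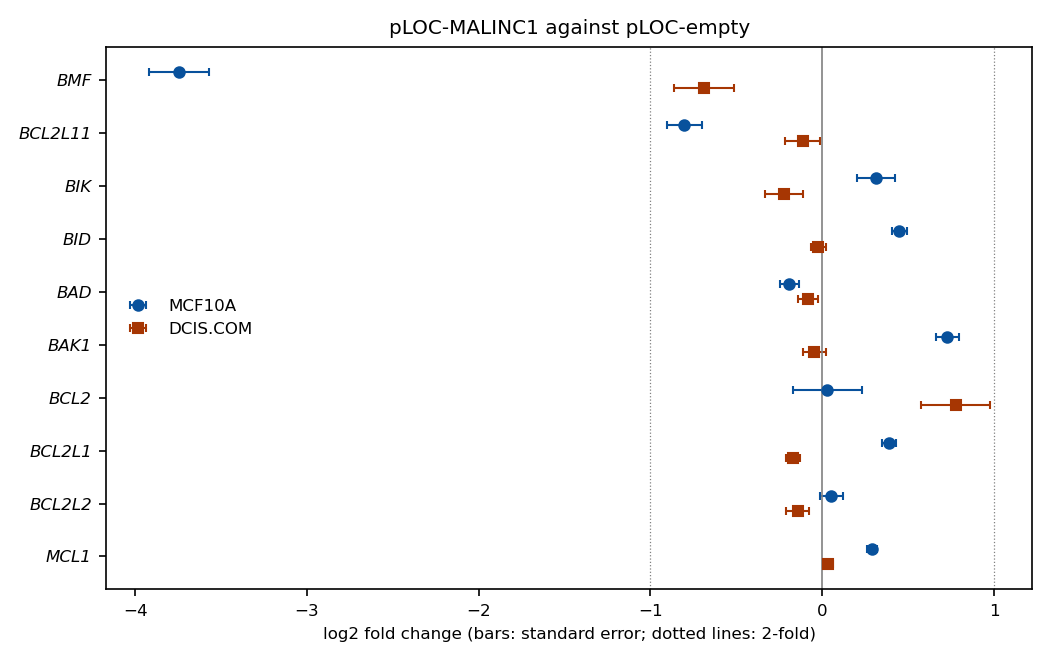
Log2 fold change of pLOC-*MALINC1* against pLOC-empty (horizontal axis) for the 10 genes in MCF10A (blue circles) and DCIS.COM (orange squares). Bars are standard errors and dotted lines mark 2-fold. *BMF* in MCF10A, at -3.75, is the only point beyond 2-fold, and the DCIS.COM points lie between -0.69 and 0.78.

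How the lines differed in their response involves the values that chose *BMF*, so it is described without a test for the members. Levels of *BCL2L1* and *BIK* with *MALINC1* lay above both control libraries in MCF10A and below both in DCIS.COM, where *BIK* did not pass the threshold (adjusted p = 0.125 by limma). *BCL2* differed between the vectors in DCIS.COM and overlapped between them in MCF10A.

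DCIS.COM differed from MCF10A in most members whichever vector the cells carried, as it did in most of all genes. On the deposited scale the widest gap was that of *BMF* with pLOC-empty and that of *BCL2* with pLOC-*MALINC1*. Between the lines with pLOC-empty, the log2 difference of *BMF* was -4.84 (standard error 0.18), and with pLOC-*MALINC1* it was -1.78, both given without a test. Over the alternatives the first ranged from -5.31 to -3.84 and the second from -2.36 (quantile normalization) to -0.92 (pseudocount of 1 CPM), the last under 2-fold. Of the other 9 members, with pLOC-empty 3 were higher in DCIS.COM at an adjusted p below 0.01 (37.9% of all genes) and 5 were lower (36.0% of all genes), and 3 passed both thresholds (28.6% of all genes). With pLOC-*MALINC1* 2 were higher (35.7% of all genes), 7 were lower (37.2% of all genes) and 3 passed both thresholds (26.6% of all genes). The median log2 difference over the 10 members was -0.43 with pLOC-empty and -0.44 with pLOC-*MALINC1*, against 0.03 and 0.01 over all genes.

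*BCL2* and *BCL2L1*, both anti-apoptotic, differed between the lines in opposite directions. *BCL2* was higher in DCIS.COM by a log2 difference of 1.78 with pLOC-empty (standard error 0.20, adjusted p = 3.17e-06 by limma) and of 2.53 with pLOC-*MALINC1* (adjusted p = 1.12e-07). *BCL2L1* was lower, with -1.23 (standard error 0.040, adjusted p = 1.88e-11 by limma) and -1.79 (adjusted p = 7.14e-13). In each case the 4 libraries of a line lay on 1 side of the 4 of the other line. Separation of the lines within a vector was common and does not set these genes apart. With pLOC-empty the libraries of the lines did not overlap for 12477 of all 13842 genes, and with pLOC-*MALINC1* for 12463.

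*MCL1* and *BCL2L2* differed less between the lines. *MCL1* was lower in DCIS.COM, with log2 differences of -0.30 (adjusted p = 1.4e-06 by limma) and -0.56 (adjusted p = 3.65e-09). *BCL2L2* had a log2 difference of -0.02 with pLOC-empty (adjusted p = 0.751 by limma) and of -0.22 with pLOC-*MALINC1* (adjusted p = 0.00755), which stayed below 0.01 in 8 of 16 alternatives.

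Of the BH3-only genes, *BID* was higher in DCIS.COM and *BCL2L11*, *BIK* and *BAD* were lower. *BID* differed by 0.79 on the log2 scale with pLOC-empty (adjusted p = 2.44e-09 by limma) and by 0.32 with pLOC-*MALINC1* (adjusted p = 1.75e-05). *BCL2L11* differed by -1.04 with pLOC-empty (adjusted p = 7.94e-07 by limma) and by -0.35 with pLOC-*MALINC1* (adjusted p = 0.00701), the latter below 0.01 in 10 of 16 alternatives. *BIK* differed by -0.69 (adjusted p = 8.87e-05 by limma) and -1.22 (adjusted p = 4.37e-07). *BAD* differed by -0.55 and -0.44, both past the threshold.

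*BAK1* changed sides between the vectors. It was higher in DCIS.COM than in MCF10A with pLOC-empty (log2 difference 0.34, adjusted p = 0.000453 by limma) and lower with pLOC-*MALINC1* (-0.44, adjusted p = 5.15e-05). Each line comparison shares its libraries with the vector comparisons, so these values are not independent of them. The scaling without *RN7SL1* and *RN7SL2* moved the median of all genes between the lines by 0.10 with pLOC-empty and 0.18 with pLOC-*MALINC1* on the log2 scale, and the sign of each line difference above held under it apart from that of *BCL2L2* with pLOC-empty.

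**Figure D3:**
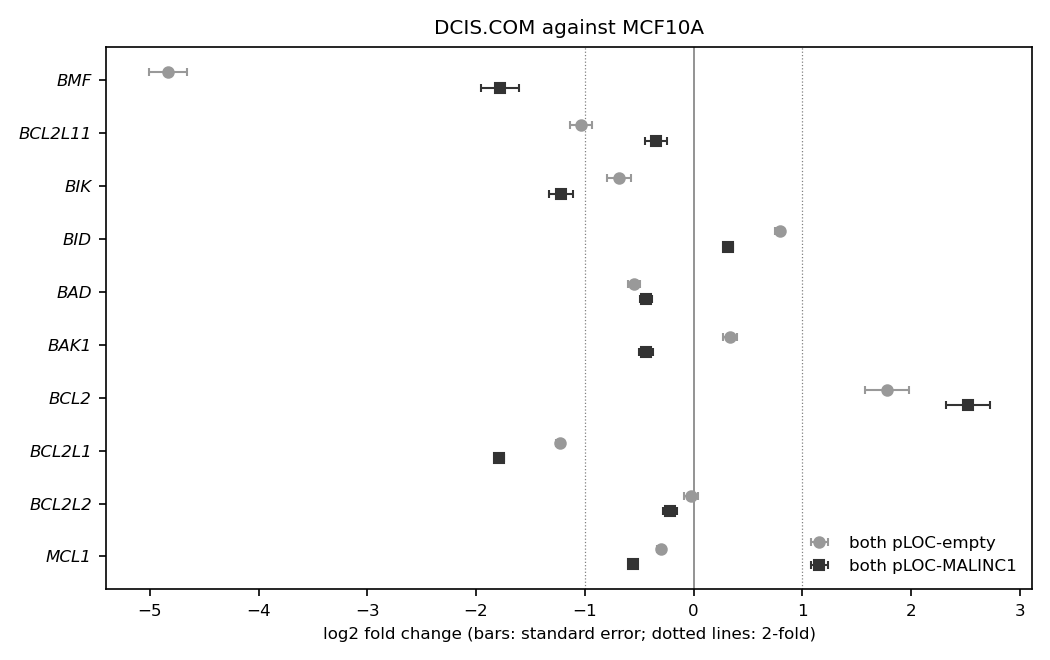
Log2 difference between DCIS.COM and MCF10A (horizontal axis, positive where DCIS.COM is higher) for the 10 genes, with pLOC-empty (grey circles) and pLOC-*MALINC1* (black squares). Bars are standard errors and dotted lines mark 2-fold. *BMF* runs from -4.84 to -1.78 between the vectors, and *BCL2* lies at 1.78 and 2.53.

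Levels of different genes were compared per kb of annotated exon. *MCL1*, whose short-lived product needs constant synthesis, was highest in every group, at 62.2, 76.0, 50.4 and 51.6 CPM per kb in MCF10A pLOC-empty, MCF10A pLOC-*MALINC1*, DCIS.COM pLOC-empty and DCIS.COM pLOC-*MALINC1*. In MCF10A pLOC-empty it was followed by *BAD* (29.9 CPM per kb), *BCL2L1* (21.5), *BID* (13.8), *BAK1* (12.9), *BIK* (8.73), *BCL2L2* (7.60), *BMF* (5.08), *BCL2L11* (2.81) and *BCL2* (0.0743). In DCIS.COM pLOC-empty the order was *MCL1*, *BID* (24.0 CPM per kb), *BAD* (20.5), *BAK1* (16.3), *BCL2L1* (9.19), *BCL2L2* (7.50), *BIK* (5.41), *BCL2L11* (1.37), *BCL2* (0.251) and *BMF* (0.178). *BMF* was thus above *BCL2L11* in MCF10A pLOC-empty alone.

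With pLOC-*MALINC1*, *BMF* read 0.380 CPM per kb in MCF10A and 0.110 CPM per kb in DCIS.COM, where *BCL2* read 0.0747 and 0.430 CPM per kb. *BMF* was ranked 8 of 10 in MCF10A pLOC-empty, 9 in MCF10A pLOC-*MALINC1* and 10 in both DCIS.COM groups. Within each group, no neighbours in the order overlapped between their 2 libraries. The exon lengths are those of GENCODE on GRCh37, which is not the gene set that the reads were counted on.

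**Figure D4:**
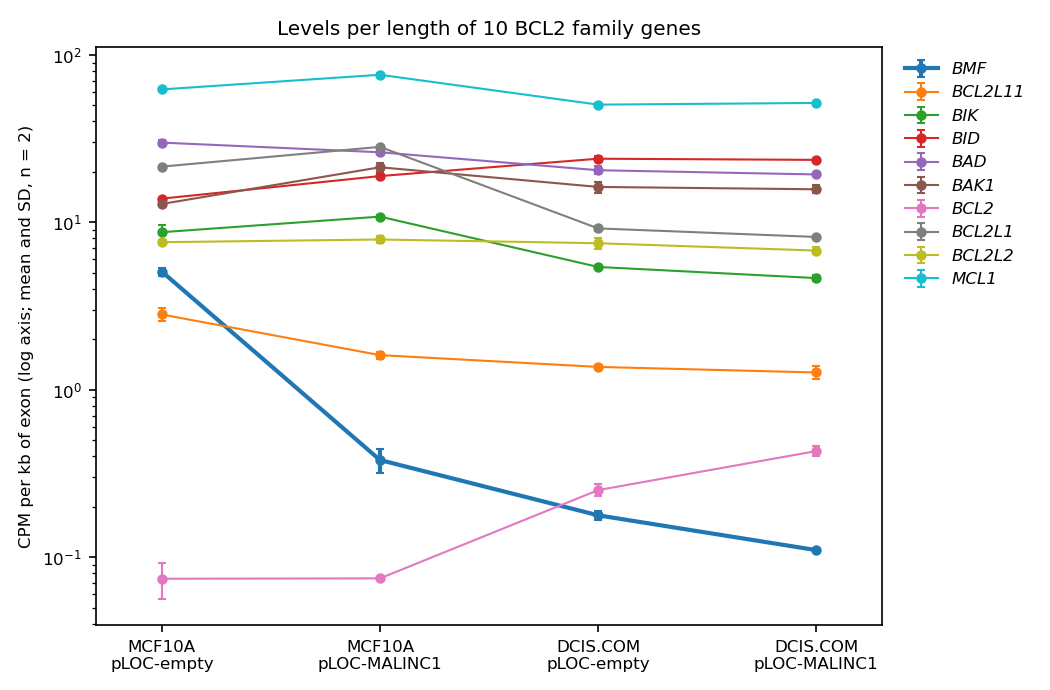
Level of the 10 genes per kb of exon (vertical log axis) in the 4 groups. Points are means and bars the SD of 2 libraries, and lines join the values of a gene. *BMF* goes from 5.08 CPM per kb in MCF10A pLOC-empty to 0.110 in DCIS.COM pLOC-*MALINC1* and crosses *BCL2L11* and *BCL2*.

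*BMF* lies on chromosome 15 from 40380091 to 40401093 on the minus strand of GRCh37, with 4913 nt of exon. Its antisense gene *BMF-AS1* covers 461 nt (9.38%) of these exons and is not in the table. *BCL2L1* (chromosome 20, 30252255 to 30311792, minus strand) is covered over 43.7% of its exon length by the antisense RNA *ABALON*, and *BCL2L2* (chromosome 14, 23767999 to 23780960, plus strand) shares 13.7% of its exon length with the read-through gene *BCL2L2-PABPN1*, neither of which is in the table. *BCL2L11* (chromosome 2, 111876955 to 111926021, plus strand) overlaps *MIR4435-2HG* on the opposite strand over 11.9%, and *BAD* (chromosome 11, 64037302 to 64052176, minus strand) overlaps *GPR137* over 28.7%. The strand setting of the read counting is not given in the sources used here, so reads of such partners cannot be told apart from those of the member. *MIR4435-2HG* read 24.3 ± 0.670 CPM (SD, n = 2) in MCF10A pLOC-empty and 27.9 ± 1.19 CPM in MCF10A pLOC-*MALINC1*, where *BCL2L11* was lower with *MALINC1*. In DCIS.COM it fell with *MALINC1* (log2 fold change -0.47, standard error 0.069, adjusted p = 0.000158 by limma), the sign that *BCL2L11* also had there. *GPR137* read 9.92 ± 0.719 CPM in MCF10A pLOC-empty and 8.09 ± 0.148 CPM in MCF10A pLOC-*MALINC1* (-0.29, adjusted p = 0.0203), the same sign as *BAD*, and it had -0.06 (adjusted p = 0.657) in DCIS.COM. The part of these partners in the members' values was not tested. *BAK1* has processed pseudogenes, *BAK1P1* and *BAK1P2*, that could share its reads.

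The wider pathway was read from 6 lists of 63 genes, of which 57 are in the table. In MCF10A 2 of the 57 genes (3.51%) passed both thresholds, both higher with *MALINC1*, and in DCIS.COM 3 (5.26%), all lower. These shares are near the 5.5% and 4.53% of all genes. At an adjusted p below 0.01 with any fold, 13 list genes were higher and 10 lower in MCF10A, where 21.5% and 18.1% of all genes were, and 10 were higher and 17 lower in DCIS.COM, where 16.4% and 16.7% of all genes were. The counts for each list below use this threshold and are to be read beside these shares of all genes. A gene outside a count did not pass the threshold and is not thereby unchanged. The responses of the lines differed at that threshold for 35.9% of all genes, 15.6% toward higher and 20.3% toward lower in DCIS.COM. Of the list genes 7 differed toward higher and 19 toward lower, among them *PMAIP1*, *BNIP3L*, *CYCS*, *BIRC3*, *TNFRSF10A*, *SFN*, *FOXO1* and *HUWE1*.

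Of 8 other BCL2 family genes in the table, 1 was higher and 2 were lower with *MALINC1* in MCF10A, and 1 was higher and 4 were lower in DCIS.COM. *PMAIP1*, the gene of the BH3-only protein NOXA that binds MCL1, read 9.21 and 9.06 CPM with pLOC-empty and 19.9 and 19.5 CPM with pLOC-*MALINC1* in MCF10A. It rose there (log2 fold change 1.11, standard error 0.099, adjusted p = 1.69e-06 by limma) and had means of 10.4 CPM against 12.1 CPM in DCIS.COM (0.21, adjusted p = 0.0975). *BNIP3L*, which encodes the mitophagy receptor NIX, fell in DCIS.COM from 88.5 and 99.4 CPM to 35.7 and 38.9 CPM (-1.33, standard error 0.057, adjusted p = 3.12e-09).

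Of 10 genes of mitochondrial release and the apoptosome, 3 were higher and 1 was lower in MCF10A, and 3 were lower in DCIS.COM. *CYCS*, the gene of cytochrome c, read 164.5 and 164.2 CPM against 233.1 and 250.3 CPM in MCF10A (log2 fold change 0.56, adjusted p = 1.16e-07 by limma) and 245.9 and 249.0 CPM against 222.5 and 225.2 CPM in DCIS.COM (-0.14, adjusted p = 0.00609). *CASP9*, the initiator caspase of the apoptosome, did not pass in either line (-0.27, adjusted p = 0.137, and -0.48, adjusted p = 0.0165).

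Of 8 executioner caspases and their inhibitors, 1 was lower in MCF10A, and 1 was higher and 3 were lower in DCIS.COM. *BIRC3*, which encodes the inhibitor of apoptosis cIAP2, fell in DCIS.COM from 42.5 and 42.5 CPM to 12.9 and 11.8 CPM (log2 fold change -1.79, standard error 0.051, adjusted p = 9.37e-11 by limma). In MCF10A it read 73.5 and 71.1 CPM against 76.3 and 78.8 CPM (0.10, adjusted p = 0.115).

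Of 13 genes of death receptors and their signalling, 4 were higher and 1 was lower in MCF10A, and 6 were lower in DCIS.COM. *TNFRSF10A*, the gene of the TRAIL receptor DR4, rose in MCF10A from 26.6 and 28.0 CPM to 56.8 and 60.1 CPM (log2 fold change 1.10, standard error 0.055, adjusted p = 1.1e-08 by limma), with 0.13 (adjusted p = 0.0689) in DCIS.COM. *CASP10*, an initiator caspase of these receptors, passed both thresholds in DCIS.COM (-1.64, standard error 0.40, adjusted p = 0.0048) on 30 and 34 reads against 7 and 29 reads. Without replicate 1 of DCIS.COM pLOC-*MALINC1*, its log2 fold change was -0.77 (adjusted p = 0.0125), which ends the call, and without replicate 2 it was -2.52 (adjusted p = 1.01e-05).

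Of 13 partners and regulators of BH3-only proteins, which include the dynein light chains that hold BMF and BIM, the 14-3-3 proteins that hold BAD and FOXO factors known to activate *BCL2L11*, 4 were higher and 3 lower in MCF10A and 5 were higher and 1 was lower in DCIS.COM. *SFN* (14-3-3 sigma) read 261.2 and 263.9 CPM against 511.6 and 500.1 CPM in MCF10A (log2 fold change 0.95, adjusted p = 2.08e-10 by limma), just under 2-fold, and 0.11 (adjusted p = 0.00881) in DCIS.COM. *FOXO1* read 41.6 and 43.5 CPM against 22.4 and 21.9 CPM in MCF10A (-0.94, adjusted p = 6.05e-06) and 5.20 and 4.61 CPM against 6.51 and 5.51 CPM in DCIS.COM (0.29, adjusted p = 0.0271).

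Of 5 genes of MCL1 turnover, 1 was higher and 2 were lower in MCF10A, and 3 were higher in DCIS.COM. *FBXW7*, a ubiquitin ligase subunit that targets MCL1, had log2 fold changes of 0.34 (adjusted p = 0.000114 by limma) in MCF10A and 0.55 (adjusted p = 2.35e-06) in DCIS.COM. *HUWE1*, another ligase for MCL1, had -0.27 (adjusted p = 0.00271) and 0.40 (adjusted p = 0.000177).

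**Figure D5:**
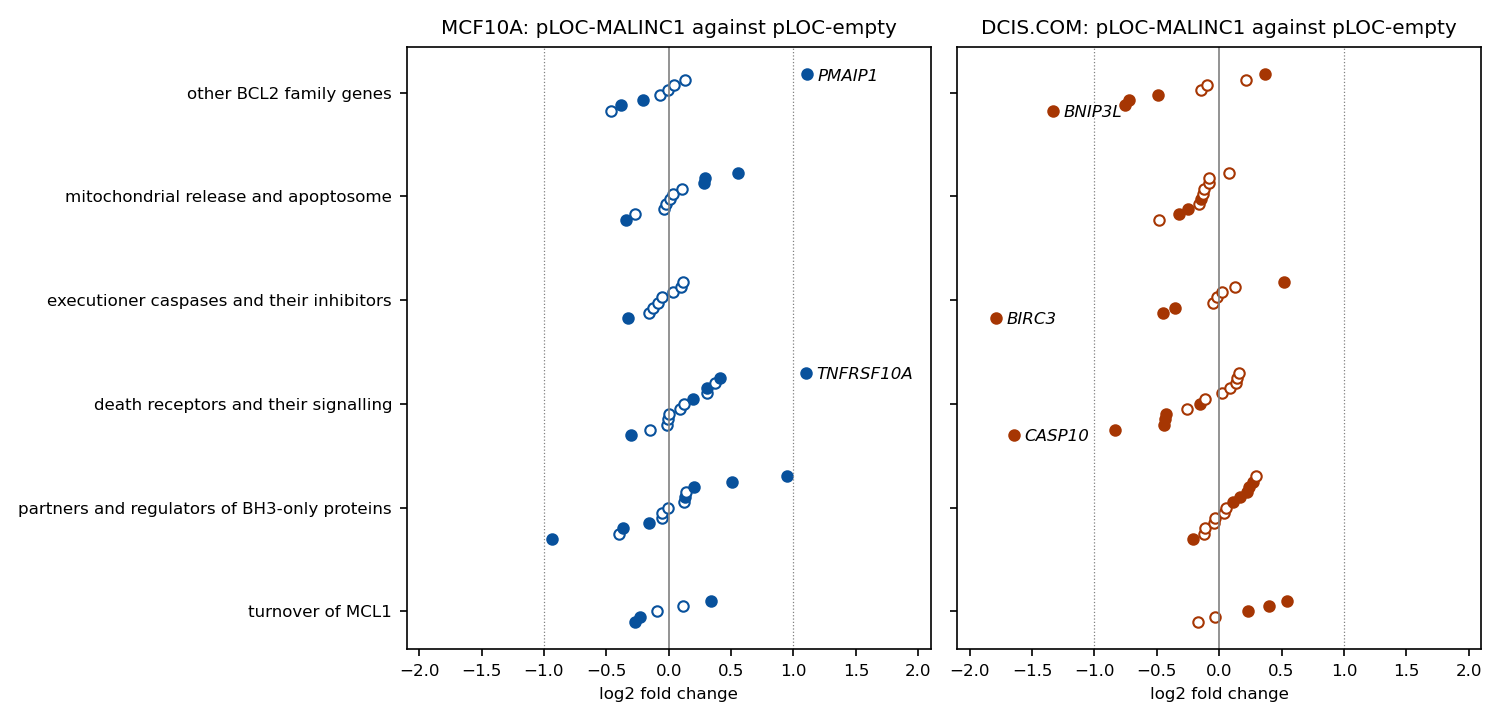
Log2 fold change of pLOC-*MALINC1* against pLOC-empty (horizontal axes) for the 57 list genes, by list, in MCF10A (left) and DCIS.COM (right). Filled points have an adjusted p below 0.01, dotted lines mark 2-fold, and the points within a list are spread vertically in the order of their values. *PMAIP1* and *TNFRSF10A* lie beyond 2-fold in MCF10A and *BNIP3L*, *BIRC3* and *CASP10* in DCIS.COM.

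The genes whose profile over the 8 libraries was most like that of *BMF* were taken from 1515 genes with a wide range of group means, by Pearson's r of the log2 CPM. They were *CSPG4* (r = 0.984), *MAP7D2* (0.981), *DIO2* (0.978), *HMOX1* (0.976) and *PCDH9* (0.976). *CSPG4*, the gene of a cell-surface proteoglycan, read 67.5 ± 4.19 CPM (SD, n = 2) in MCF10A pLOC-empty, 11.9 ± 1.10 CPM in MCF10A pLOC-*MALINC1*, 3.73 ± 0.0269 CPM in DCIS.COM pLOC-empty and 2.96 ± 0.341 CPM in DCIS.COM pLOC-*MALINC1*. All of them were highest in MCF10A pLOC-empty, as *BMF* was, which follows from their selection by likeness to *BMF* and is no separate result. With a pseudocount of 1 CPM, their ranks by r went from 2 (*DIO2*) to 11 (*CSPG4*).

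Among the members, r with *BMF* was 0.986 for *BCL2L11*, 0.910 for *BAD*, 0.657 for *BCL2L1*, 0.619 for *BIK*, 0.428 for *MCL1*, 0.419 for *BCL2L2*, -0.522 for *BAK1*, -0.781 for *BCL2* and -0.972 for *BID*. *BCL2L11* was too narrow in range to enter the 1515 genes. The 8 points are pairs of libraries of the same line and vector, and these coefficients mostly describe the levels of 4 groups.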

How the data were processed

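RNA of subconfluent plates was made into ScriptSeq v2 libraries and sequenced with 76 nt paired reads. The authors aligned reads to hg19 with Rsubread, counted them with featureCounts on UCSC hg19 genes and normalized with edgeR (versions, strand setting and low-count filter are not given in the sources used here). Per the deposited table, values are in log2 CPM, with a prior of about 2 reads per gene that was scaled to library size. A gene without reads stands at 0.0713 CPM in every library. Whole reads were recovered for 100% of values (tolerance 0.1), and the prior was kept in all CPM and fold changes unless stated, which understates changes of low genes.

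Linear models were fitted to these values in R 4.3.3 (limma 3.58.1, with lmFit, then eBayes with a trend; 4 group means over 8 libraries, 2 per group, Benjamini-Hochberg over all 13842 genes, which all passed 0.5 CPM in 2 libraries). Residual degrees of freedom were 4, and those of the prior 7.98. A DEG had an adjusted p below 0.01 and over 2-fold. The same steps recovered 100% of 200 changed genes in simulated data of each vector comparison, with 4 (MCF10A) and 3 (DCIS.COM) calls in error. The changed genes differed by 4-fold or 8-fold, up or down, and all genes had the same simulated dispersion. Recovery of smaller differences was not tested, among them those under 2-fold that most members had between the vectors. Tables and figures used Python 3.11.15, pandas 2.3.3, numpy 2.4.6 and matplotlib 3.10.9.

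Members and lists were chosen with earlier results of these data known. Named genes are all members, the DEGs of each list between vectors (or, with none, the 2 largest changes), the 5 genes most like *BMF* among those with a group mean of 5 CPM or more and group means ranging over 2 or more on the log2 scale, and *MALINC1*. Alternatives changed pseudocount, filter, scaling and model, and left out each library in turn. Since all genes passed the filter, the alternative without a filter equals the main fit. It could not differ and is counted in each tally of alternatives. Intervals from reads are exact (Clopper-Pearson) and cover counting error only.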

Additional observations from a re-analysis of the deposited data

Results flagged for a closer look

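The responses to *MALINC1*, on the log2 scale and taken as DCIS.COM minus MCF10A, differed at an adjusted p below 0.01 by limma for 7 genes of the pathway lists toward higher and 19 toward lower, of 57, and for 35.9% of all genes (15.6% toward higher and 20.3% toward lower). Among the genes named in the text that did so, the difference was -0.898 for *PMAIP1* (adjusted p = 0.000206), -0.949 for *BNIP3L* (adjusted p = 1.23e-06) and -0.70 for *CYCS* (adjusted p = 3.46e-07). It was -1.889 for *BIRC3* (adjusted p = 1e-09) and -0.968 for *TNFRSF10A* (adjusted p = 7.49e-07). It was -0.834 for *SFN* (adjusted p = 1.1e-08), 1.23 for *FOXO1* (adjusted p = 1.32e-05) and 0.671 for *HUWE1* (adjusted p = 4.24e-05).

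For *BCL2L1* and *BIK*, both libraries with *MALINC1* lay above both control libraries in MCF10A and below both in DCIS.COM, although *BIK* did not pass the threshold in DCIS.COM (adjusted p = 0.125 by limma). The difference between the responses was -0.561 for *BCL2L1* and -0.533 for *BIK*. It is given without a test, since the contrast includes the values taken to have chosen *BMF*.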

How the results depend on the processing

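Counts of genes past a threshold stayed within 1.5 times their main value in 192 of 198 cases. The exceptions concern the members at an adjusted p below 0.01 in DCIS.COM with pLOC-*MALINC1* against pLOC-empty. These were 3, but 1 with voom on the recovered reads and 0 with each cell line fitted alone. The other exceptions left out 1 DCIS.COM library. Within the bound of 1.5 times, the count still fell to 2 with either pseudocount, a filter of 5 CPM and quantile normalization. It was also 2 with library totals without *RN7SL1* and *RN7SL2*. At lower levels the pseudocount decides the size, so *BMF* in DCIS.COM went from -0.69 to -0.29 with 1 CPM. With the replicate block, 3 members stayed at an adjusted p below 0.01 in DCIS.COM. The replicate numbers do not pair the samples, since the deviations of same-numbered libraries from their group means correlated with r of -0.067 to 0.038.

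The signs that turned were those of differences near 0. In MCF10A, *BCL2* (0.03) became -0.008 with library totals without *RN7SL1* and *RN7SL2* and -0.004 with voom, and ran from -0.219 to 0.276 without 1 library. *CASP10* in MCF10A became 0.042 with quantile normalization and ran from -0.146 to 0.122 without 1 library. In DCIS.COM, *BID* became 0.012 with library totals without *RN7SL1* and *RN7SL2* and ran from -0.061 to 0.015 without 1 library, and *BAK1* from -0.124 to 0.030. Between the lines with pLOC-empty, *BCL2L2* became 0.024 with quantile normalization and 0.083 with the other library totals, and ran from -0.106 to 0.060 without 1 library. With pLOC-*MALINC1*, *CYCS* (-0.11) became 0.071 with those totals and *CASP9* (0.07) became -0.219 with quantile normalization. The causes were not tested.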
